A study of Mus musculus with 10 samples.

Results

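The ERBB receptors, 5 of their ligands and the receptor inhibitor *Errfi1* were followed in the hearts of *Rit1* M90I/+ mice. The 10 genes were chosen by name from the pathway, with earlier results of these data known. Each had 1 row among the 54532 genes of the deposited table. They were the receptors *Egfr*, *Erbb2*, *Erbb3* and *Erbb4*, the ligands *Nrg1*, *Hbegf*, *Btc*, *Areg* and *Ereg*, and *Errfi1*. All hearts came from *Rit1* M90I/+ mice, so no heart without the variant was compared. The variant allele was conditional, and males homozygous for it were mated with females homozygous for a cytomegalovirus-Cre deleter transgene. By this cross every mouse inherited the Cre transgene. The study describes the variant of these mice as germline, so the mutation was not limited to cardiac cells. In the MEKi group (n = 5), mice were given the MEK1/MEK2 inhibitor trametinib at 1 mg/kg daily for 20 weeks from 4 weeks of age. The vehicle control group (n = 5) had the same genotype, the same starting age and the same period of dosing without the drug. Expression was measured by poly(A)-selected RNA-seq of heart tissue and was given as FPKM. These are fragments scaled by the length of the gene and by a size factor of the library (median of ratios) rather than its total depth. Both sexes were included in the study, and the sex of each heart is not in the labels.

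Members of the epidermal growth factor (EGF) family bind to the extracellular part of ERBB receptors, which then pair, phosphorylate each other and signal through RAS, RAF and MEK to ERK. EGFR binds HB-EGF, betacellulin, amphiregulin and epiregulin, whereas ERBB3 and ERBB4 bind neuregulins. ERBB2 has no known ligand of its own and serves as a partner for the other receptors, and the kinase of ERBB3 is weak. In the heart, neuregulin 1 made by endothelial cells acts on ERBB2 and ERBB4 of cardiomyocytes and is needed for growth and maintenance of the myocardium. *Errfi1* is an immediate early gene whose product binds to the kinase domain of the receptors and blocks it, so that the pathway limits itself.

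The promoter of *Errfi1* is shown because this inhibitor had the largest fold change among the 4 members tested, and that of *Areg* because it holds the same motif. The cyclic AMP response element (TGACGTCA, both strands) was found in the 250 bases before the annotated start of *Errfi1* on chromosome 4 and of *Areg* on chromosome 5 (GRCm38, plus strand, RefSeq promoters), and its 8 bases are in capitals.
*Errfi1*, chr4:150854820-150855069: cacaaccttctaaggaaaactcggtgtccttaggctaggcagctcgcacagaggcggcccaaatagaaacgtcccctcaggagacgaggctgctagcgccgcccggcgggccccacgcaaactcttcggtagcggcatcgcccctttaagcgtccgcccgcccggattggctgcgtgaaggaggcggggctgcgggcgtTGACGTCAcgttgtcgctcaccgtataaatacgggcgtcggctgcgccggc
*Areg*, chr5:91139349-91139598: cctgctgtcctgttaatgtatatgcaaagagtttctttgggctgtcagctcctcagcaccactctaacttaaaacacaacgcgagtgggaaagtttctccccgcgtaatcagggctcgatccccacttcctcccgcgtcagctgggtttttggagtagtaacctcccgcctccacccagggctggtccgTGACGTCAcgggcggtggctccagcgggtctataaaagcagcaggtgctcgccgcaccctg
The element lay 51 bases before the start for *Errfi1* and 61 bases before it for *Areg*. The window of *Errfi1* is intronic for the transcript that starts further upstream, at 150853919, and the window before a second RefSeq start of *Errfi1* did not hold the element. Promoters were listed for 6 members, with 7 windows in all, and 2 of these windows held the element, as did 1.55% of the 32851 promoter windows of all genes. No member window held an AP-1 site (TGANTCA, found in 6.75% of all windows) or a serum response element (found in 1.47%), and 1 window, that of *Egfr*, held the ETS sequence CCGGAAG (6.91%). *Erbb3*, *Ereg*, *Hbegf* and *Nrg1* were not listed. A match of letters does not show that a factor binds there.

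Fragments assigned to genes numbered from 13647167 to 18474002 in a heart. The X-linked transcript *Xist* had at least 1456 fragments in each MEKi heart and at most 2 in each vehicle heart. The Y-linked genes *Ddx3y*, *Eif2s3y*, *Kdm5d* and *Uty* had at least 104 fragments each in every vehicle heart and none in any MEKi heart. By these transcripts the vehicle hearts were male and the MEKi hearts female, a division exactly as treatment. For every difference below, treatment and any difference between the sexes, also in autosomal genes, cannot be told apart. The cardiomyocyte genes *Myh6*, *Tnnt2*, *Actn2*, *Ryr2* and *Ttn* were abundant in all hearts (summed 2795 to 3963 FPKM with vehicle and 3031 to 4466 FPKM with MEKi). The atrial genes *Myl7*, *Sln*, *Myl4* and *Bmp10* summed to 838.3, 382.6 and 679.5 FPKM in vehicle hearts 4 and 5 and MEKi heart 2, against at most 39.5 FPKM in the other hearts, so values of the tested members without these 3 hearts are given where they moved.

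In heart tissue the ligand *Hbegf* and the inhibitor *Errfi1* were the most abundant of the 10 transcripts, followed by *Erbb2* and *Erbb3*. Mean levels over the 10 hearts were 5.01 FPKM for *Hbegf*, 2.92 for *Errfi1*, 1.85 for *Erbb2* and 1.31 for *Erbb3*. The others were lower, at 0.445 FPKM for *Egfr*, 0.375 for *Btc*, 0.320 for *Erbb4*, 0.172 for *Nrg1*, 0.0289 for *Areg* and 0.0191 for *Ereg*. From *Hbegf* down to *Egfr*, each gene exceeded the next in 10 of 10 hearts. Below that the order was less firm. *Egfr* exceeded *Btc* in 7 of 10 hearts, *Btc* exceeded *Erbb4* in 7, *Erbb4* exceeded *Nrg1* in 9 and *Nrg1* exceeded *Areg* in 8. *Areg* exceeded *Ereg* in 2 hearts, so the lowest places have no firm order. The 4 receptors summed to between 3.47 and 4.16 FPKM with vehicle and between 3.81 and 4.32 FPKM with MEKi. Of this sum, *Erbb2* made up a median of 51.8% in vehicle hearts (range 40.2% to 55.9%) and 43.4% in MEKi hearts (42.1% to 48.1%). For *Erbb3* the medians were 32.3% (20.6% to 36.5%) and 36.6% (30.0% to 41.0%). The ranges of the groups overlapped for both receptors.

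**Figure D1:**
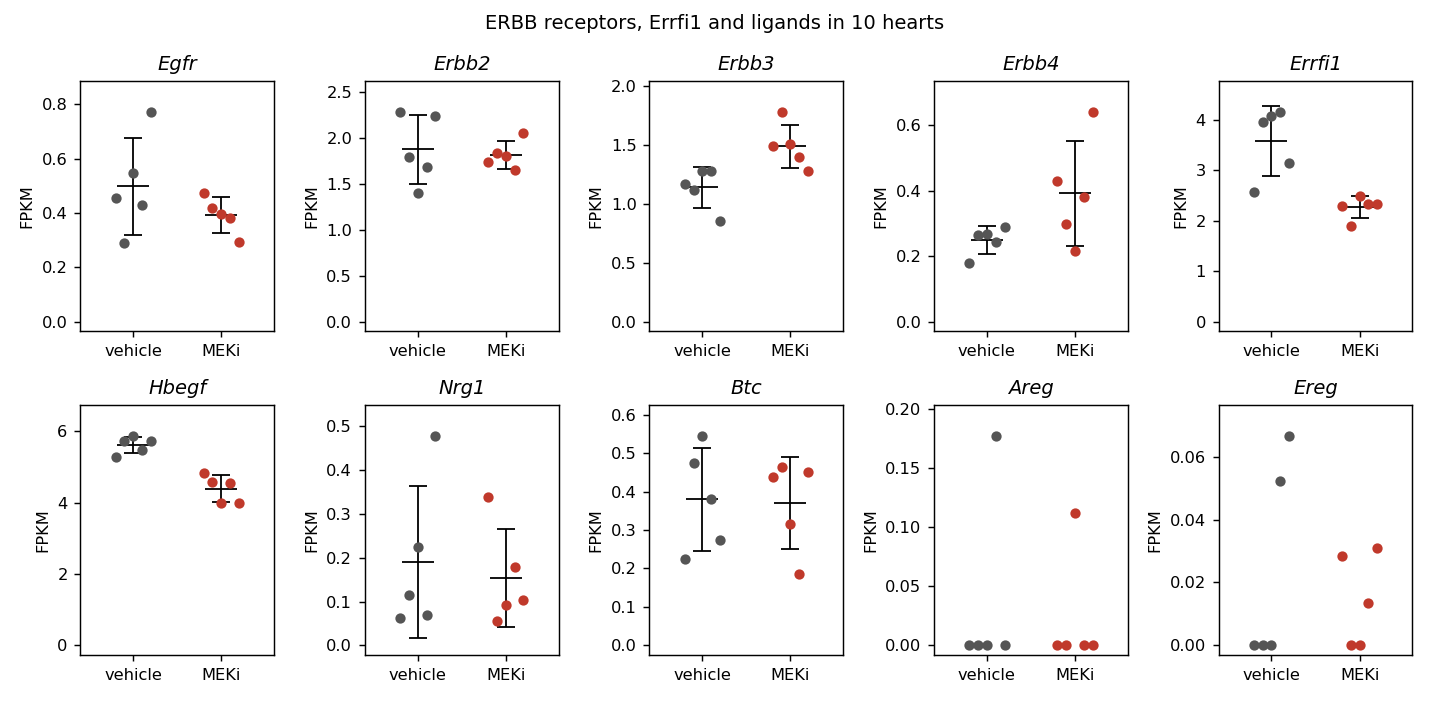
FPKM of the 10 genes (vertical axes, linear, with a separate scale for each gene) in 5 vehicle hearts (grey points) and 5 MEKi hearts (red points). Horizontal bars are group means and whiskers are SD; none are drawn for *Areg* and *Ereg*, which had 0 fragments in 8 and 5 hearts. All MEKi points of *Errfi1* and *Hbegf* lie below all vehicle points, and all MEKi points of *Erbb3* lie above them.

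With MEKi, transcripts of *Errfi1* and of the ligand *Hbegf* were lower in all 5 hearts than in any vehicle heart, and those of the receptor *Erbb3* were higher in all 5. Relative to vehicle, the group mean differed by −36.6% for *Errfi1*, by −21.8% for *Hbegf* and by 30.6% for *Erbb3*. None of these differences passed the threshold of an adjusted p under 0.05 over all genes, so they are given as values. Of the 10 genes, 4 (*Errfi1*, *Hbegf*, *Erbb2* and *Erbb3*) averaged 0.5 FPKM or more and entered the fit over all genes on log2(FPKM + 0.1), and 6 did not. By limma with Benjamini-Hochberg adjustment, 0 of these 4 passed, against 0.0794% of all 12602 genes in the fit (with MEKi, 0.0555% lower and 0.0238% higher). *Xist*, *Ddx3y*, *Eif2s3y* and *Uty* were among the genes that passed, and 0 genes passed without X, Y and mitochondrial genes. An unadjusted p under 0.05 was found for 3 of the 4 members tested, 2 lower and 1 higher, and for 7.62% of genes (3.94% lower and 3.67% higher). In the limma fit of every gene above 0, which held all 10 members, 0 passed, against 0.0447% of 24630 genes, and 3 had an unadjusted p under 0.05, against 5.78%. With voom on the recovered fragments, 0 of the 4 passed, against 0.0714% of genes, and 3 had an unadjusted p under 0.05, against 7.74%. The exact permutation test, run on all 24630 genes with any fragment, gave an unadjusted p under 0.05 for 3 of the 10, against 5.35% of genes. Its smallest adjusted p over all these genes was 0.711, so 0% of genes passed. With 5 hearts in each group, no exact p can be below 0.00794. After adjustment, a gene with fully separate groups could therefore pass only if far more genes had separate groups. The adjusted exact p given below thus cannot tell a member that differs from one that does not. Groups did not overlap for 3 of the 10 members, 2 lower and 1 higher with MEKi, and for 1.12% of the genes with any fragment (1.64% of the genes past the filter, 0.849% lower and 0.794% higher). The members were chosen with earlier results of these data known, and the study picked *Errfi1* partly from these same hearts. The member counts are therefore a description beside the shares of all genes, not a test. In bulk tissue, fewer cells of a type and less RNA per cell cannot be told apart.

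*Errfi1* (ENSMUSG00000028967; GRCm38 chromosome 4, 150853919 to 150868892, plus strand) encodes the ERBB receptor feedback inhibitor. It was at 2.57, 3.95, 4.08, 4.15 and 3.15 FPKM in vehicle hearts 1 to 5 and at 2.30, 1.90, 2.49, 2.33 and 2.33 FPKM in MEKi hearts 1 to 5. The MEKi hearts lay close together and below every vehicle heart, of which heart 1 was nearest to them. Group means were 3.58 ± 0.693 and 2.27 ± 0.218 FPKM (SD, n = 5 each), with between 117 and 208 fragments behind each value. The log2 fold change was −0.62 (SE 0.14, 95% confidence interval −0.93 to −0.31, limma adjusted p = 0.289). *Errfi1* ranked 44 of 12602 genes by unadjusted p. By two-sided exact permutation test p was 0.00794, the smallest that 5 against 5 hearts can give, and 0.711 after adjustment over all genes with any fragment. The study had picked *Errfi1* partly for being lower in these MEKi hearts, so its direction is no fresh finding. Without the 3 hearts with atrial transcripts the log2 fold change was −0.54 (limma adjusted p = 0.743). Without vehicle heart 1 it was −0.73 (limma adjusted p = 0.0740), and no other alternative gave *Errfi1* a smaller adjusted p.

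*Hbegf* (ENSMUSG00000024486; chromosome 18, 36504929 to 36515805, minus strand) encodes heparin-binding EGF-like growth factor, a membrane-anchored ligand of EGFR and ERBB4 that proteases release. It was at 5.28, 5.73, 5.87, 5.48 and 5.73 FPKM in vehicle hearts 1 to 5 and at 4.84, 4.59, 3.99, 4.55 and 4.00 FPKM in MEKi hearts 1 to 5. The lowest vehicle heart was thus above the highest MEKi heart, and the spread within each group was narrow, with means of 5.62 ± 0.234 and 4.39 ± 0.383 FPKM (SD, n = 5 each). The log2 fold change was −0.35 (SE 0.09, 95% confidence interval −0.54 to −0.16, limma adjusted p = 0.314), rank 73 by unadjusted p, with 139 to 211 fragments per heart. The exact permutation test gave p = 0.00794, the smallest possible, and 0.711 after adjustment over all genes with any fragment. This p stayed at 0.00794, also the smallest that 4 against 5 hearts can give, with any 1 heart left out. Leaving out a heart cannot make separate groups overlap, so this adds little to the separation itself. For *Errfi1* and *Erbb3* the exact permutation p reached at most 0.0159 and 0.0317 in the same way. The log2 fold change was between −0.39 and −0.32 with each heart left out, and −0.28 on a TPM scale. Without the 3 hearts with atrial transcripts it was −0.37, but with a limma adjusted p of 0.743.

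Markers of the epithelial and mesothelial covering of the heart (*Epcam*, *Krt18*, *Krt19*, *Msln* and *Wt1*) were read beside *Hbegf*. Their summed level was between 5.31 and 13.0 FPKM in vehicle hearts and between 1.39 and 10.2 FPKM in MEKi hearts. *Krt18*, *Krt19*, *Msln* and *Wt1* entered the fit and each had a lower mean with MEKi, but none passed the threshold. *Epcam*, with at most 9 fragments in a heart, was below the filter and had the higher mean with MEKi (0.0136 and 0.135 FPKM). After group means were removed, *Hbegf* and this sum had a Pearson r of 0.80 (Spearman rho 0.76) over the 10 hearts, the highest of any member with any of the 11 marker lists. Both values of a heart come from the same library. MEKi hearts 3 and 5, the lowest for *Hbegf*, had marker sums of 1.39 and 2.76 FPKM, the lowest of all hearts, whereas MEKi heart 1 had a sum of 10.2 FPKM and 4.84 FPKM of *Hbegf*, still below every vehicle heart. The part of these cells in the difference of *Hbegf* was not tested.

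**Figure D2:**
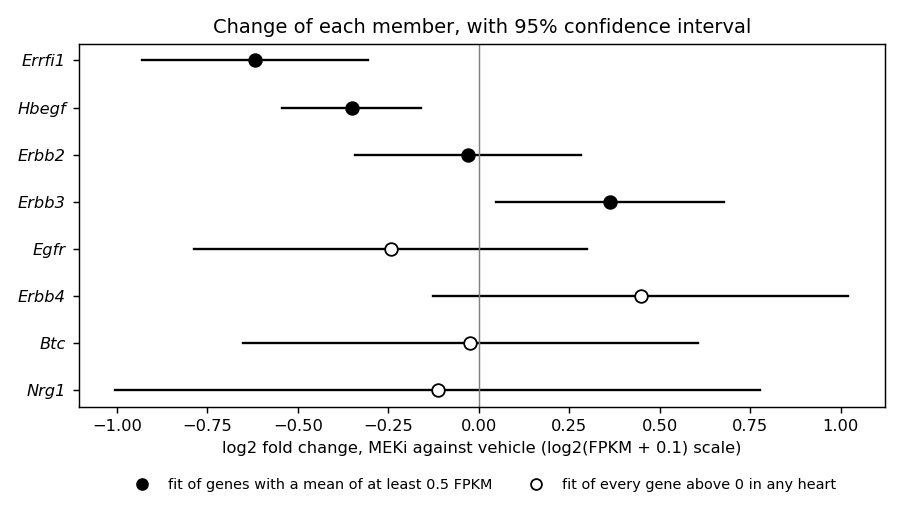
Log2 fold change of MEKi against vehicle on the log2(FPKM + 0.1) scale (horizontal axis) for 8 members, with 95% confidence intervals as lines. Filled points are from the fit of genes averaging 0.5 FPKM or more and open points from the fit of every gene above 0 in any heart. The intervals of *Errfi1* and *Hbegf* lie below 0, that of *Erbb3* lies above 0, and the others include 0.

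*Erbb3* (ENSMUSG00000018166; chromosome 10, 128567523 to 128589652, minus strand) encodes the neuregulin receptor with a weak kinase. It was at 1.17, 1.12, 1.27, 1.28 and 0.857 FPKM in vehicle hearts 1 to 5 and at 1.48, 1.77, 1.51, 1.39 and 1.28 FPKM in MEKi hearts 1 to 5. Every MEKi heart was above every vehicle heart, but the groups nearly touched, since the highest vehicle heart had 1.277 FPKM (107 fragments) and the lowest MEKi heart 1.280 FPKM (121 fragments). Means were 1.14 ± 0.172 and 1.49 ± 0.183 FPKM (SD, n = 5 each), and the log2 fold change was 0.36 (SE 0.14, 95% confidence interval 0.05 to 0.68, limma adjusted p = 0.587), and the gene ranked 602 by unadjusted p. The exact permutation test gave p = 0.00794 and, after adjustment over all genes with any fragment, 0.711. With a pseudocount of 1 the log2 fold change was 0.22. Without the 3 hearts with atrial transcripts it was 0.24 (limma adjusted p = 0.894), and without vehicle heart 5, the lowest, it was 0.27 (limma adjusted p = 0.735).

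Glial cells of cardiac nerves use ERBB3, so 3 Schwann cell genes were read beside it. *Sox10*, *Mbp* and *Cdh19* summed to between 1.62 and 3.91 FPKM with vehicle and between 2.22 and 4.00 FPKM with MEKi, and these ranges overlapped. None of these 3 passed the threshold. Group means were 0.413 and 0.727 FPKM for the transcription factor gene *Sox10* (log2 fold change 0.66, limma adjusted p = 0.619) and 1.63 and 1.83 FPKM for the cadherin gene *Cdh19* (0.22, limma adjusted p = 0.904). For *Mbp*, which encodes a myelin protein, they were 0.687 and 0.533 FPKM (−0.28, limma adjusted p = 0.820). Across the 10 hearts, with group means removed, *Erbb3* and the sum of these 3 genes had a Pearson r of −0.07.

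*Erbb2* (ENSMUSG00000062312; chromosome 11, 98412470 to 98437716, plus strand), the partner receptor, was at 2.28, 1.80, 1.40, 1.68 and 2.24 FPKM in vehicle hearts 1 to 5 and at 1.74, 1.83, 1.80, 1.65 and 2.05 FPKM in MEKi hearts 1 to 5. All MEKi values lay within the range of the vehicle values. The means of 1.88 ± 0.376 and 1.82 ± 0.149 FPKM (SD, n = 5 each) differed by less than the spread between hearts (log2 fold change −0.03, 95% confidence interval −0.34 to 0.28, limma adjusted p = 0.971). The sign of this small difference turned in 5 of 19 alternatives, among them a TPM scale (0.05) and the fit without the 3 hearts with atrial transcripts (0.01). It also turned without vehicle heart 1 (0.04), vehicle heart 5 (0.03) or MEKi heart 4 (0.0005). The interval leaves room for a change of either sign. *Erbb2* overlaps the more abundant gene *Mien1* on the opposite strand by 9 exonic bases, and whether strand was used in counting is not given in the sources used here.

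*Erbb4* (ENSMUSG00000062209; chromosome 1, 68032186 to 69108059, minus strand), the neuregulin receptor of cardiomyocytes, was at 0.178, 0.264, 0.268, 0.244 and 0.289 FPKM in vehicle hearts 1 to 5 and at 0.430, 0.297, 0.215, 0.380 and 0.639 FPKM in MEKi hearts 1 to 5. In 4 of 5 MEKi hearts the level was above that of every vehicle heart, and MEKi heart 3 was within the vehicle range. Means were 0.249 ± 0.0426 and 0.392 ± 0.160 FPKM (SD, n = 5 each), and the MEKi values were more spread out than the vehicle values. The difference of mean log2(FPKM + 0.1) was 0.45 and did not pass (exact permutation test, p = 0.0873, 0.987 after adjustment over all genes with any fragment). Its 95% confidence interval was −0.13 to 1.02 in the limma fit of every gene above 0. With a pseudocount of 1 it was 0.15. Without MEKi heart 5, the highest, the difference was 0.29, and without MEKi heart 3, the one inside the vehicle range, it was 0.59. Over the hearts left out, the exact permutation p ranged from 0.00794 (without MEKi heart 3, which leaves groups that do not overlap) to 0.167 (without vehicle heart 1). Because *Erbb4* is a long gene, 37 to 124 fragments per heart lay behind these values although the FPKM were low. Within *Erbb2* and *Erbb4*, the pair that carries the neuregulin signal in cardiomyocytes, the ratio of FPKM was 5.25 to 12.8 with vehicle (median 6.89) and 3.21 to 8.39 with MEKi (median 4.35). These ranges overlapped.

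Summed cardiomyocyte markers and *Erbb4* had a Pearson r of −0.69 (Spearman rho −0.65) over the 10 hearts with group means removed. This sum of FPKM follows *Myh6* and *Tnnt2* most (vehicle means 2044 and 755 FPKM, against 20.8 for *Ryr2* and 15.0 for *Ttn*). The MEKi heart with the most *Erbb4*, heart 5, had the lowest marker sum of its group, 3031 FPKM, and the vehicle heart with the least *Erbb4*, heart 1, had the highest of its group, 3963 FPKM. Both values of a heart share its library and depth, and what part this has in the relation was not tested.

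*Egfr* (ENSMUSG00000020122; chromosome 11, 16752203 to 16918158, plus strand), the receptor of EGF and HB-EGF, was at 0.457, 0.288, 0.546, 0.431 and 0.770 FPKM in vehicle hearts 1 to 5 and at 0.474, 0.417, 0.397, 0.380 and 0.292 FPKM in MEKi hearts 1 to 5. All MEKi values lay inside the vehicle range, whose top was set by vehicle heart 5. The means were 0.499 ± 0.178 and 0.392 ± 0.0660 FPKM (SD, n = 5 each), a difference within the spread between hearts (difference of mean log2 −0.24, 95% confidence interval −0.79 to 0.30, exact permutation test, p = 0.294). Without vehicle heart 5 the difference was −0.10 (exact permutation test, p = 0.571). Without vehicle heart 2 it was −0.39 (exact permutation test, p = 0.0476, 0.948 after adjustment over all genes with any fragment). Both hearts thus moved the difference by more than 1.5 times. Vehicle heart 5 also had the highest summed fibroblast markers (*Pdgfra*, *Dcn*, *Col1a1* and *Tcf21*), 171.4 FPKM against 109.9 to 150.2 FPKM in the other hearts, and the highest sums of endothelial, endocardial, smooth muscle, macrophage and T cell markers. With group means removed, *Egfr* had a Pearson r of 0.52 with the fibroblast sum (Spearman rho 0.37) and 0.52 with the endothelial sum (0.45). Pearson r was 0.54 with the endocardial (Spearman rho 0.25), 0.58 with the Schwann cell (0.50) and −0.57 with the adipocyte sum (−0.56). The ranks thus gave weaker relations for the fibroblast, endothelial and endocardial sums, and the part of these cells in the values of *Egfr* was not tested. *Errfi1* exceeded *Egfr* 4.08- to 13.7-fold in FPKM with vehicle and 4.57- to 7.97-fold with MEKi.

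**Figure D3:**
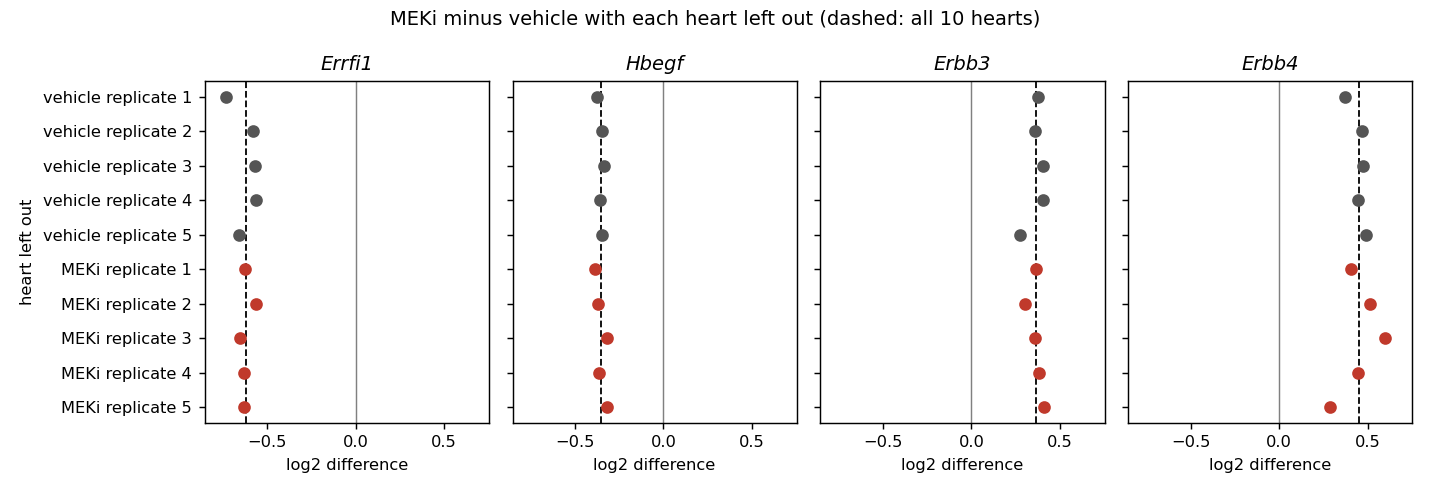
Difference of mean log2(FPKM + 0.1), MEKi minus vehicle (horizontal axis), for *Errfi1*, *Hbegf*, *Erbb3* and *Erbb4* with each of the 10 hearts left out in turn (vertical axis; grey, vehicle heart left out, red, MEKi heart left out). Dashed lines are the values with all hearts. No point crosses 0, *Hbegf* varies least, and *Erbb4* varies most, between 0.29 and 0.59.

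The remaining ligands were scarce. *Nrg1* (ENSMUSG00000062991; chromosome 8, 31814551 to 32884029, minus strand), which encodes neuregulin 1, was at 0.0632, 0.114, 0.224, 0.0694 and 0.478 FPKM in vehicle hearts 1 to 5 and at 0.338, 0.0563, 0.0921, 0.178 and 0.105 FPKM in MEKi hearts 1 to 5. Vehicle heart 5 and MEKi heart 1 stood above the rest, and the groups overlapped (difference of mean log2 −0.11, 95% confidence interval −1.004 to 0.78, exact permutation test, p = 0.778). The difference was 0.18 without vehicle heart 5, 0.04 without MEKi heart 2 and −0.33 without MEKi heart 1, so its sign rests on single hearts. Only 10 to 72 fragments per heart were counted for *Nrg1*. The endothelial genes *Pecam1*, *Cdh5*, *Kdr*, *Emcn* and *Tek*, read because endothelium makes neuregulin 1, summed to between 90.3 and 151.6 FPKM with vehicle and between 88.7 and 110.7 FPKM with MEKi. The top endothelial sum of each group came from the heart with the most *Nrg1*, vehicle heart 5 and MEKi heart 1. With group means removed Pearson r was 0.50 (Spearman rho 0.31). Hearts with higher adipocyte sums (*Adipoq*, *Plin1* and *Cfd*) had less *Nrg1* (Pearson r −0.80, Spearman rho −0.79). This was the lowest Pearson r of any member with any of the 11 marker lists, so it is an extreme of many values. The part of endothelial and fat cells in the values of *Nrg1* was not tested.

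*Btc* (ENSMUSG00000082361; chromosome 5, 91357261 to 91402994, minus strand), which encodes betacellulin, was at 0.224, 0.476, 0.545, 0.381 and 0.274 FPKM in vehicle hearts 1 to 5 and at 0.439, 0.464, 0.316, 0.186 and 0.451 FPKM in MEKi hearts 1 to 5. The groups overlapped throughout (difference of mean log2 −0.02, 95% confidence interval −0.65 to 0.61, exact permutation test, p = 0.921), with 15 to 36 fragments per heart. Its sign turned in 4 of 13 alternatives. *Areg* (ENSMUSG00000029378; chromosome 5, 91139599 to 91148432, plus strand), which encodes amphiregulin, had 3 fragments in vehicle heart 4, 2 in MEKi heart 3 and 0 in the other 8 hearts. *Ereg* (ENSMUSG00000029377; chromosome 5, 91074622 to 91093646, plus strand), which encodes epiregulin, had 3 and 4 fragments in vehicle hearts 4 and 5, then 2, 1 and 2 in MEKi hearts 1, 4 and 5, and 0 in the other 5 hearts. A count of 0 allows up to 3 fragments, so a difference between groups was not detectable for *Areg* and *Ereg* at this depth (exact permutation tests, p = 1.00 and 0.683). *Ereg* shares 141 exonic bases with *Gm19610* on the opposite strand.

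Other genes of the pathway came from a list of 33, also written with earlier results of these data known. Of the 33, 25 passed the filter. Of these, 10 had a log2 fold change below 0, as had 47.9% of all genes tested, and 15 above 0. Their median log2 fold change was 0.05, against 0.01 for all genes tested. By limma 0 of the 25 passed, and an unadjusted p under 0.05 was found for *Nrg2*, *Adam19*, *Gab1* and *Grb2*, each higher with MEKi (4 of 25, against 7.62% of all genes in either direction and 3.67% higher). By voom 0 passed and 3 had an unadjusted p under 0.05, against 7.74% of all genes. Groups were without overlap for 0 of the 25, against 1.64% of all genes.

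Among 6 further ligands only *Nrg2*, a neuregulin that binds ERBB3 and ERBB4, passed the filter. *Nrg2* was at 0.463, 0.743, 0.708, 0.723 and 0.401 FPKM in vehicle hearts 1 to 5 and at 1.04, 0.567, 1.13, 0.980 and 1.05 FPKM in MEKi hearts 1 to 5. It was above every vehicle heart in 4 of 5 MEKi hearts, with MEKi heart 2 inside the vehicle range (log2 fold change 0.58, 95% confidence interval 0.06 to 1.09, limma adjusted p = 0.596). *Egf* was at 0.312 ± 0.0772 and 0.234 ± 0.0531 FPKM, *Nrg4* at 0.302 ± 0.0708 and 0.394 ± 0.0804 FPKM and *Tgfa* at 0.354 ± 0.195 and 0.292 ± 0.125 FPKM (SD over 5 hearts). By exact permutation test their p was 0.111, 0.0873 and 0.635. The count of *Epgn* did not exceed 8 fragments in any heart, and *Nrg3* was listed at 0 in all hearts.

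Of 8 proteases and carriers that release ligands from the membrane, 7 entered the fit, of which 3 were lower and 4 higher with MEKi. *Adam19*, a protease that can cleave neuregulins, had the largest difference of the list. It was at 1.00, 1.46, 1.63, 1.08 and 1.79 FPKM in vehicle hearts 1 to 5 and at 2.82, 2.16, 3.23, 1.41 and 1.97 FPKM in MEKi hearts 1 to 5. Only MEKi heart 4 fell within the vehicle range (log2 fold change 0.67, SE 0.23, 95% confidence interval 0.18 to 1.17, limma adjusted p = 0.512). *Adam10* (log2 fold change 0.15, limma adjusted p = 0.831) and the HB-EGF sheddase *Adam17* (0.09, limma adjusted p = 0.876) differed by less than the spread between hearts.

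Among 8 receptor adaptors and effectors, 7 passed the filter, 3 lower and 4 higher. The docking protein gene *Gab1* was at 8.63, 8.12, 9.90, 7.504 and 7.504 FPKM in vehicle hearts 1 to 5 and at 9.98, 10.2, 10.4, 9.35 and 10.1 FPKM in MEKi hearts 1 to 5. Vehicle heart 3 alone reached into the MEKi range (log2 fold change 0.27, SE 0.09, 95% confidence interval 0.07 to 0.48, limma adjusted p = 0.517). *Grb2*, which links receptors to SOS, was at 23.1 ± 2.37 and 26.4 ± 1.01 FPKM (SD, n = 5 each; log2 fold change 0.20, limma adjusted p = 0.649). Of 11 genes of receptor turnover and inhibition, 10 passed the filter, 4 lower and 6 higher, none with an unadjusted p under 0.05, and their log2 fold changes lay between −0.16 and 0.15. *Sh3kbp1*, an adaptor of the ubiquitin ligase CBL, had 0.15 (limma adjusted p = 0.802) and *Erbin*, which binds ERBB2, 0.13 (limma adjusted p = 0.820).

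**Figure D4:**
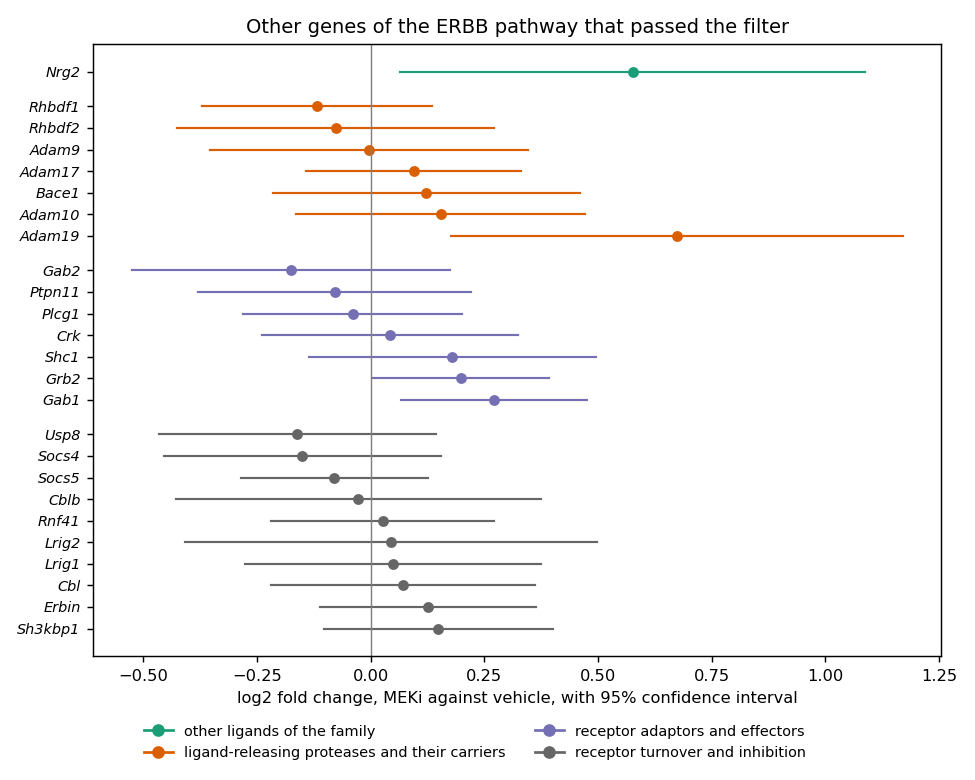
Log2 fold change of MEKi against vehicle with 95% confidence intervals (horizontal axis) for the 25 other pathway genes that passed the filter, coloured by list. *Nrg2*, *Adam19*, *Gab1* and *Grb2* have intervals above 0, no gene has an interval below 0, and none passed the threshold after adjustment over all genes.

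Besides the lists given with *Hbegf*, *Erbb3*, *Erbb4*, *Egfr* and *Nrg1*, markers of other cells were compared between groups. Of 43 markers in 11 lists, 38 entered the fit and 0 passed by limma. An unadjusted p under 0.05 was found for 3 of the 38 (*Col1a1* and *Csf1r*, lower with MEKi, and *Sox10*, higher), against 7.62% of all genes. Of the fibroblast genes, *Col1a1* and *Dcn* had log2 fold changes of −0.38 and −0.03, and *Pdgfra* and *Tcf21* had 0.11 and 0.25. The macrophage genes *Csf1r*, *Adgre1*, *C1qa* and *Cd68* summed to between 91.5 and 169.2 FPKM with vehicle and between 91.8 and 111.0 FPKM with MEKi, and all 4 had a lower mean with MEKi. Smooth muscle and pericyte genes (*Myh11*, *Acta2*, *Rgs5* and *Kcnj8*) summed to 145.7 to 207.7 and 153.6 to 172.7 FPKM, endocardial genes (*Npr3*, *Plvap* and *Cytl1*) to 40.5 to 139.4 and 49.3 to 124.6 FPKM, adipocyte genes to 0.365 to 91.7 and 5.21 to 89.4 FPKM, and T cell genes (*Cd3e*, *Cd3g* and *Cd2*) to 0.0517 to 1.73 and 0.334 to 1.33 FPKM. In each list these ranges overlapped. With group means removed, *Erbb2* had a Pearson r of 0.69 with the macrophage sum (Spearman rho 0.58), and *Errfi1* one of −0.49 (Spearman rho −0.54). All marker sums are of unweighted FPKM, so the most abundant genes of a list weigh most. Such genes were *Dcn*, *C1qa* and *Cfd*, with vehicle means of 113, 102 and 24.8 FPKM. A correlation with a sum can therefore reflect 1 transcript rather than a cell type. The part of these cells in the members' values was not tested.

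**Figure D5:**
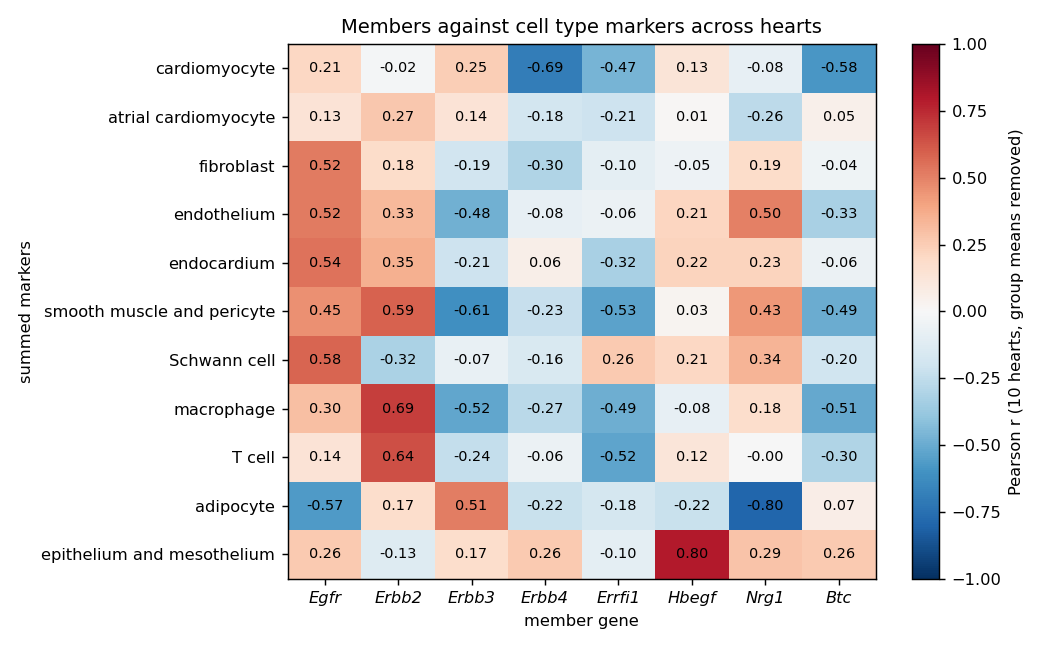
Pearson r over 10 hearts, after group means were removed, between log2(FPKM + 0.1) of 8 members (columns) and the log2 summed FPKM of 11 marker lists (rows); blue is negative and red positive. *Hbegf* with epithelial and mesothelial markers (0.80) and *Nrg1* with adipocyte markers (−0.80) have the largest values. The most abundant genes of a list weigh most in its sum.

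The members also differed in which other genes they varied with inside the groups. Over the 10 hearts with group means removed, *Errfi1* was most like *Adgrl2* (Pearson r 0.96), *2810006K23Rik* (0.95) and *Wdr45b* (0.94). *Erbb2* was most like *Csf2ra* (0.98), *Aprt* (0.96) and *Fcrla* (0.93), and *Erbb3* was most like *Sgsm3* (0.94), *Igsf1* (0.94) and *Camkk1* (0.93). These are the highest of 12601 values for each gene and are given as a description. Among pairs of the 8 members detected in every heart, *Erbb2* and *Errfi1* had the lowest Pearson r within the groups (−0.74, Spearman rho −0.75). *Egfr* and *Nrg1* had the highest (Pearson r 0.67, Spearman rho 0.55), and vehicle heart 5 was the highest heart for both. By ranks the highest pair was *Erbb4* and *Nrg1* (Spearman rho 0.78, Pearson r 0.40). These pairs are extremes of many and are given as a description. The values of 1 heart come from 1 library in each of these pairs.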

How the data were processed

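RNA-seq libraries of 10 hearts were grouped by their labels into vehicle control and MEKi (n = 5 each). The authors deposited FPKM per gene, with gene lengths and coordinates. Per the labels, fastp, STAR 2.5, HTSeq 0.6.1 and build mm10 were used. Start and end were the same in GENCODE M21 (GRCm38) for 98.3% of 54495 shared genes. FPKM multiplied by length were whole multiples of 1 step in each heart (100% within 0.001), which gave the fragments. The FPKM denominators equal median-of-ratios size factors. The study's methods state no test for these libraries. A pseudocount of 0.1 FPKM was added, and limma 3.58.1 (R 4.3.3; lmFit, then eBayes with trend) was run on log2 values of genes averaging 0.5 FPKM or more. Its two-sided p-values were adjusted by Benjamini-Hochberg, with 0.05 as the threshold. Exact permutation tests used all 252 assignments of hearts to groups (Python 3.11.15, scipy 1.17.1). Limits for a count of 0 (3 fragments) cover counting error only. The fit was tested on simulated data.

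The members, gene lists and tests were chosen with earlier results of these data known. Named besides the members are, in each pathway list, the 2 genes with the smallest unadjusted p, the 3 genes most like each tested receptor and *Errfi1*, list members where a list is given, and X- and Y-linked transcripts. *Adam17*, *Egf*, *Nrg4*, *Tgfa*, *Epgn* and *Nrg3* were named after their values were seen. Alternatives were pseudocounts of 1 and 0.01, other filters, a TPM scale, voom, eBayes without trend, a replicate block, X, Y and mitochondrial genes left out, and hearts left out. Some markers of the Schwann cell list are not reported here, so its sum and counts cover 3 genes.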

Additional observations from a re-analysis of the deposited data

Results flagged for a closer look

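A single heart stood far from the other 4 of its group in 7 of 58 sets of values. By chance about 2.9 of these sets, 1 in 20, would be picked if their values were independent and roughly normal. These sets are neither. *Areg*, at 0 in the other hearts of a group, is picked whatever its 1 value is, and several sets share MEKi heart 2. No conclusion is therefore drawn from 7 beside 2.9. Of the members, *Areg* was at 0.177 FPKM in vehicle heart 4 and 0.112 FPKM in MEKi heart 3, and at 0 in the other hearts of each group, which is 3 and 2 fragments. *Nrg2* was at 0.567 FPKM in MEKi heart 2 and between 0.980 and 1.13 FPKM in the other MEKi hearts. The same heart was far above the other MEKi hearts for the summed atrial markers (679.5 FPKM, others 1.82 to 6.65), the endocardial markers (124.6 FPKM, others 49.3 to 57.2) and the adipocyte markers (89.4 FPKM, others 5.21 to 14.1). Vehicle heart 5 had 171.4 FPKM of summed fibroblast markers, against 115.0 to 130.04 FPKM in the other vehicle hearts. That heart also had the highest *Egfr* and *Nrg1* of all hearts.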

How the results depend on the processing

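No member and no gene of the pathway list passed the threshold under any of the 20 alternative fits. *Errfi1*, *Hbegf* and *Erbb3* kept their direction in every alternative that included them, with log2 fold changes from −0.73 to −0.48, −0.39 to −0.28 and 0.22 to 0.45, and *Erbb4* and *Egfr* kept theirs in 13 alternatives each. The number of all genes past the threshold, 10, was 2 with a mean of at least 5 FPKM, 0 without X, Y and mitochondrial genes (924 at an unadjusted p under 0.05), 5 without the 3 hearts with atrial transcripts, and between 5 and 13 with each heart left out (5 without vehicle heart 2, 6 without vehicle heart 5 and 13 without vehicle heart 1). The sign of *Erbb2* turned on a TPM scale (0.0451), which moved the median of all genes from 0.0107 to 0.0881, and without the 3 hearts (0.00857). It also turned without vehicle heart 1, vehicle heart 5 or MEKi heart 4. With each heart left out *Erbb2* ranged from −0.125 to 0.0410, *Nrg1* from −0.335 to 0.180, *Btc* from −0.154 to 0.146, *Areg* from −0.294 to 0.217 and *Ereg* from −0.150 to 0.0345. With a pseudocount of 1, the differences of *Erbb3*, *Erbb4* and *Egfr* were 0.219, 0.150 and −0.0998. At a mean of at least 5 FPKM, *Errfi1*, *Erbb2* and *Erbb3* have no value. The cause of these changes was not tested.

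Vehicle and MEKi hearts share replicate numbers, but same-numbered hearts did not deviate together (correlations from −0.154 to −0.0209), and 0 of 5 vehicle hearts correlated best with its own number. With the replicate block, 4 genes passed, and *Errfi1*, *Hbegf* and *Erbb3* had limma adjusted p of 0.634, 0.717 and 0.808.

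Depth limits *Areg* and *Ereg*, with at most 4 fragments in a heart, and *Btc* and *Nrg1*, with 10 to 72.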
